A study of Mus musculus with 95 samples.

Results

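Libraries 25-32 and 59-65 are 14 of the 95 islet libraries of the series, 8 in the first run of title numbers and 6 in the second (number 60 was not analysed here). They were chosen by title number, as the runs that lie between other runs marked by measured levels of Nnt, H2-Eb1 and Dhrs7c, and they were compared with the other 81 libraries. The islets came from founder strains of the Diversity Outbred mouse stock, and all mice, in the 14 and in the 81, had been fed a high-fat, high-sugar diet labelled as 45 percent fat. The labels give no strain, sex, age, harvest day or animal for any single library, so the 14 share a place in the title order and nothing else that is labelled. Nothing says that the libraries came from separate animals, and p-values measure only the spread between these libraries.

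Pancreatic islets are clusters of hormone-secreting cells, mostly beta cells that make insulin, surrounded by the acinar and duct cells of the exocrine pancreas, some of which come along when islets are picked. Inbred strains carry fixed genetic differences, so a gene can be transcribed at a strain-specific level in every animal of a strain, and neighbouring genes on a chromosome are inherited together. Islet cells also run a circadian clock, in which the activators ARNTL and CLOCK switch on genes such as Per1, Nr1d1 and Dbp through E-box sequences, and the products of some of these genes then repress the activators.

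Library totals were 17360480 to 31041237 counts in the 14 and 16411809 to 34357253 in the other 81, and levels are given as CPM, counts scaled to the library total. The genes that mark the neighbouring runs are given for the 14 as a description. Nnt, a mitochondrial proton-pumping transhydrogenase, lay between 53.1 and 64.8 CPM around a median of 59.7, within the other libraries' 15.3 to 85.4. H2-Eb1, a class II MHC chain, lay between 34.7 and 68.5 CPM (median 40.0), against 0.534 to 1729 elsewhere. Dhrs7c, a muscle-type dehydrogenase, was at most 0.246 CPM in the 14 and had a median of 173 CPM in libraries 66-75. Xist, transcribed in female cells, was above 100 CPM in 4 of libraries 25-32 and 3 of libraries 59-65, so neither run was of a single sex. The 8 islet hormone genes took 21.9% to 25.0% of their counts, with a median of 23.4%, against 6.82% to 26.6% and a median of 17.9% in the others.

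The first question was whether the runs resembled each other. Over 15283 autosomal genes with at least 1 CPM in at least 10 libraries, Spearman's rho of log2 CPM had a median of 0.990 within libraries 25-32, 0.992 within 59-65 and 0.985 over the 48 pairs between the runs. With the other 81 libraries the medians were 0.951 and 0.958. The nearest library of each of the 14 was in its own run. Each of the 14 also correlated better, on average, with the run it did not belong to than with its best match among the 81. These are correlations across genes and serve as description.

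**Figure D1:**
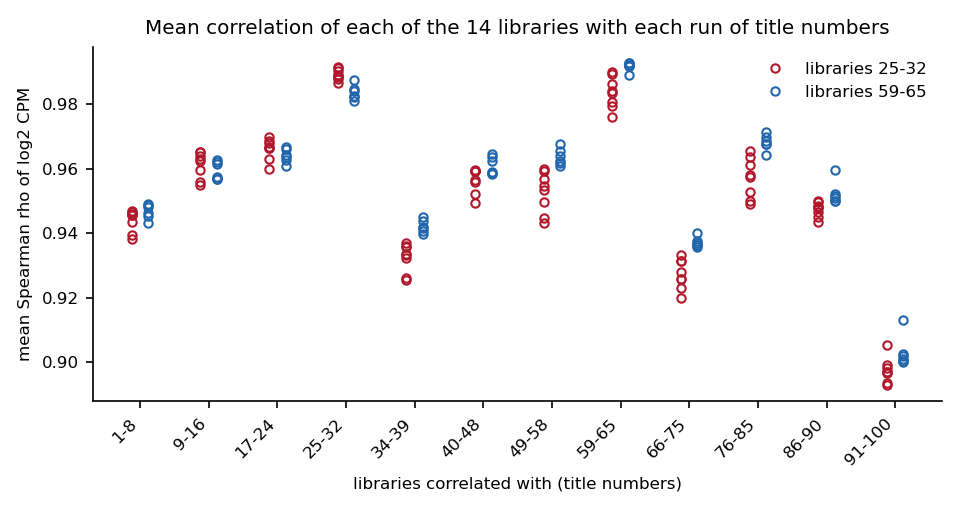
Mean Spearman rho (vertical axis) of each of the 14 libraries with each run of title numbers (horizontal axis), with libraries 25-32 as red and 59-65 as blue circles. All red circles over 59-65 and all blue circles over 25-32 lie between 0.976 and 0.990, and over the runs of other libraries no circle lies above 0.971.

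Each run was then compared with reference libraries that the other run did not use, libraries 25-32 with the 23 libraries of 1-24 and libraries 59-65 with the 25 of 34-58. The references hold runs that are grouped with each other here, 1-8 with 34-39, 9-16 with 40-48 and 17-24 with 49-58. A trait of these groups can enter both contrasts with the same sign, so agreement of the contrasts is not independent of the references. In the first contrast 4755 genes (31.1%) passed an adjusted p of 0.05 in edgeR's quasi-likelihood test and 1105 (7.23%) also differed at least 2-fold, 373 higher (2.44%) and 732 lower (4.79%). In the second contrast 2881 (18.9%) passed and 880 (5.76%) differed at least 2-fold, 228 higher (1.49%) and 652 lower (4.27%). Of the 1105 genes, 1085 (98.2%) had the same sign in the second contrast, and of the 880 genes 873 (99.2%) had the same sign in the first, beside 79.3% of all genes tested. At 2-fold 685 genes were called in both with the same sign, which is 62.0% of the first list and 77.8% of the second. Exocrine content moved with both contrasts (below), and with an acinar score as covariate the lists held 437 and 635 genes, of which 97.5% and 97.5% kept the sign in the other run, beside 71.6% of all genes. A test of the difference between the contrasts called 8 genes (0.0523%) and left 979 at an unadjusted p under 0.05. The runs are described together, and their differences at the end.

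**Figure D2:**
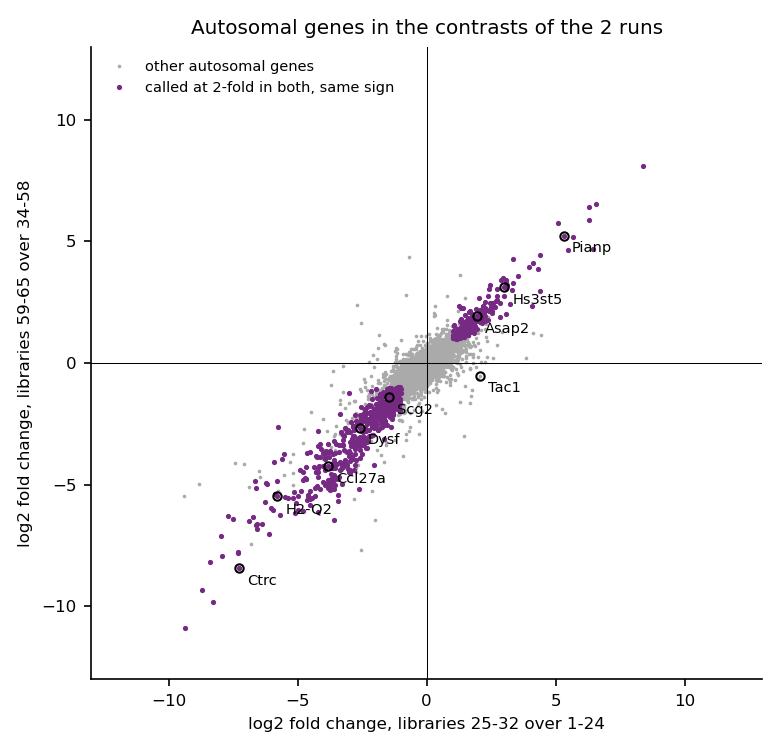
Log2 fold change of each autosomal gene in libraries 25-32 over 1-24 (horizontal axis) and in 59-65 over 34-58 (vertical axis), with the 685 genes called at 2-fold in both with the same sign in purple, which lie to the upper right and the lower left. Asap2, Hs3st5 and Pianp sit high in both, Dysf, Ccl27a, H2-Q2, Scg2 and Ctrc low in both, and Tac1 lies at 2.07 in the first contrast and -0.52 in the second.

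Against all 81 others, 6308 of the 15283 autosomal genes (41.3%) passed, 2390 higher (15.6%) and 3918 lower (25.6%) in the 14. At 2-fold or more 1574 differed (10.3%), of which 193 were higher (1.26%) and 1381 lower (9.04%). That test takes libraries as independent, yet libraries of a run of title numbers resembled each other, with a within-run correlation of 0.578. When limma voom allowed for it, 291 genes passed (1.9%), 241 higher (1.58%) and 50 lower (0.327%). At 2-fold 198 passed (1.3%), of which 166 were higher (1.09%) and 32 lower (0.209%). Of these 198 genes 170 also passed edgeR's test and 153 passed it in both run contrasts with 1 sign. The split into higher and lower rests on the scaling: of the edgeR calls 37.9% were higher with TMM library sizes and 69.4% with column sums alone, which moved the median log2 fold change of all genes from -0.05 to 0.12.

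In 20 autosomal genes (0.148% of the 13536 with a median of at least 1 CPM in the 14) every one of the 14 libraries lay above every one of the 81. Asap2, which encodes a GTPase-activating protein of the Arf family (chromosome 12, 21111748 to 21270171, GRCm38), had 43.8, 65.3 and 87.0 CPM as its lowest, median and highest value in the 14 and 6.57, 15.6 and 28.8 in the 81. Its log2 fold change was 1.82 ± 0.06 (SE; adjusted p = 2.24e-44 in edgeR, 5.11e-16 in limma voom with the within-run correlation). It was 1.94 in the first run contrast and 1.92 in the second, and 20.9% of its transcript's 31-base words also occur in other genes, most of them in the overlapping Itgb1bp1.

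Alad, the second enzyme of heme synthesis (chromosome 4, 62509169 to 62519918), had 41.8, 45.3 and 50.8 CPM in the 14. The other libraries ran from 5.55 to 30.9 CPM around a median of 12.9, and libraries 86-90, with a median of 28.6 CPM, came nearest. Alad rose by 1.39 ± 0.14 on the log2 scale (adjusted p = 3.15e-14, and 3.13e-10 with the within-run correlation). Its neighbour Hdhd3, a hydrolase gene singled out after the values were seen, rose by 1.19 ± 0.15 and overlapped, with 3.27 to 9.35 CPM in the 14 and 0.85 to 5.61 in the others. Glo1, the glyoxalase that detoxifies methylglyoxal (chromosome 17), had 149, 166 and 182 CPM against 22.1, 54.2 and 127, a log2 fold change of 1.23 ± 0.11 (adjusted p = 1.60e-16, and 1.22e-09 with the within-run correlation). Btbd9, a neighbouring gene also chosen after the values were seen, rose by 0.57 ± 0.06 with 1 of the 81 libraries in its range.

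Csgalnact1, which starts chondroitin sulfate chains, ran from 18.0 to 23.5 CPM (median 19.8) in the 14 and from 1.03 to 14.4 (median 4.11) elsewhere, and rose by 1.96 ± 0.18 (adjusted p = 9.67e-16). Hs3st5, a sulfotransferase of heparan sulfate, was low everywhere, at 0.733 to 1.97 CPM against 0 to 0.511, and rose by 3.26 ± 0.29. Col9a2, a collagen IX chain, rose by 1.39 ± 0.11 from a median of 3.86 to 11.8 CPM. These 3 genes also passed with the within-run correlation.

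Wnt4, a secreted signalling protein made by beta cells, was abundant, at 234, 275 and 312 CPM against 27.8, 124 and 203. It rose by 1.04 ± 0.11 (adjusted p = 5.49e-13, and 0.0083 with the within-run correlation). Scnn1g, the gamma subunit of the epithelial sodium channel, rose by 1.66 ± 0.16 from a median of 8.58 to 28.4 CPM. Myh14, a non-muscle myosin heavy chain, rose by 1.11 ± 0.18 and Hspa13, an endoplasmic reticulum member of the Hsp70 family, by 0.99 ± 0.10, with medians of 295 CPM in the 14 and 127 in the 81. The other members of the 20 were Itga3 (an integrin chain), F2rl1 (a protease-activated receptor), Cyth2, Fam76a, Alkbh3, Med9os, 1500015A07Rik, 1700020N18Rik, Gm18294 and Gm44249. Without libraries 91-100 in the reference 40 genes met this description.

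**Figure D3:**
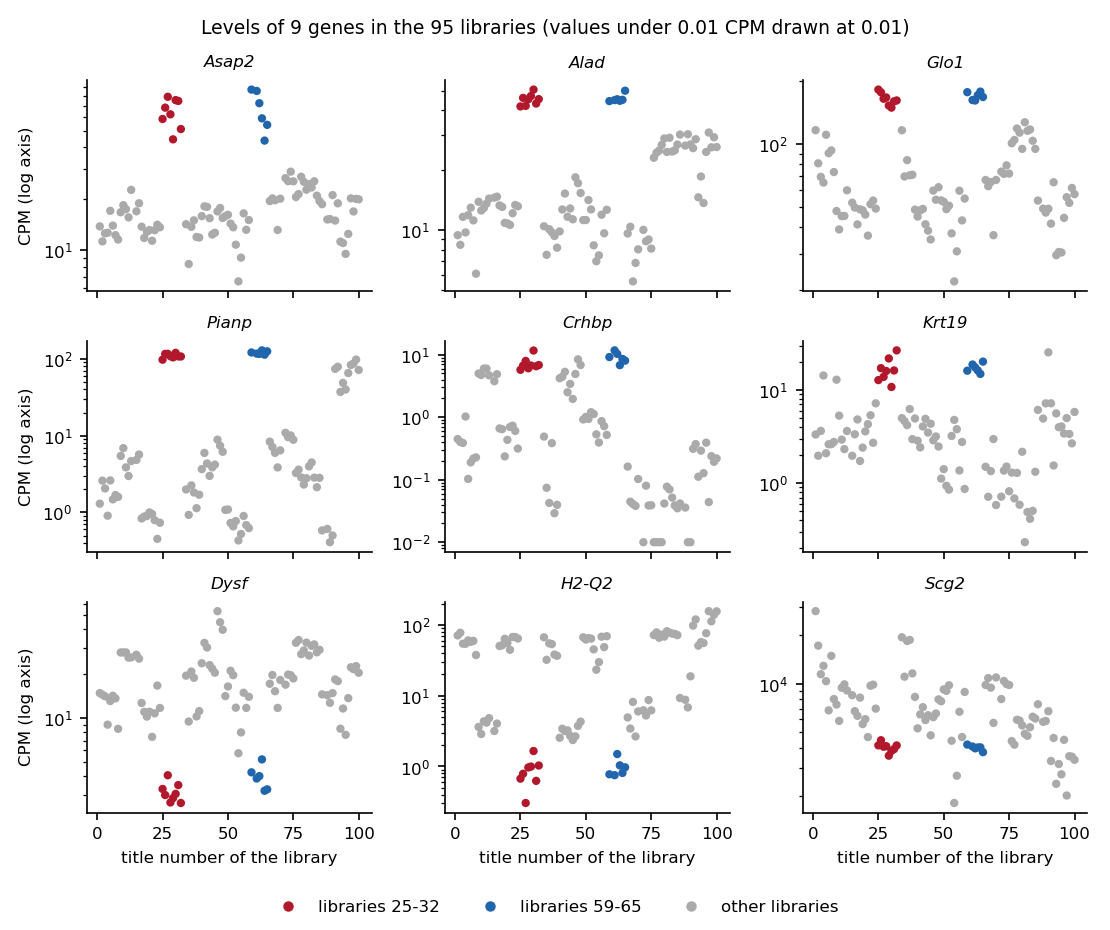
Level of 9 genes (CPM, log axis) against the title number of the library, with libraries 25-32 in red, 59-65 in blue and the others in grey. Both coloured runs sit at 1 level in each panel, above all grey points for Asap2, Alad and Glo1 and below all of them for Dysf and H2-Q2. Coloured and grey points overlap for Crhbp, Krt19 and Scg2, and for Pianp through 1 grey library only.

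In 7 genes (0.0521% of 13425) all 14 libraries lay below the other 81. Dysf, the membrane-repair protein dysferlin (chromosome 6), had 2.63, 3.27 and 5.21 CPM against 5.74, 18.1 and 53.2, and fell by 2.63 ± 0.175 on the log2 scale (adjusted p = 1.25e-23, and 3.04e-07 with the within-run correlation). Gabra4, a GABA receptor subunit, was at 0.411 to 1.56 CPM against 2.41 to 27.6 and fell by 3.76 ± 0.29 (adjusted p = 1.23e-19). Nphs1, which encodes the slit-diaphragm protein nephrin, was at 0.479 to 1.54 against 2.33 to 31.9 and fell by 3.23 ± 0.41. Gabra4 and Nphs1 did not pass with the within-run correlation (adjusted p = 0.418 and 0.696).

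The remaining 4 genes share transcript sequence with close relatives, so their levels are uncertain. H2-Q2, a non-classical MHC class I gene, had 0.304, 0.889 and 1.65 CPM in the 14 and 2.36, 51.9 and 157 in the others, where libraries 9-16 and 40-48, with a median of 3.33 CPM, were the nearest. The chemokine gene Ccl27a was at 0.0690 to 0.508 CPM against 1.32 to 9.00, and the clustered protocadherin gene Pcdhga11 at 0.318 to 1.17 against 1.56 to 14.02. Gm10039 was at 0.00652 to 2.18 against 6.95 to 28.9, and 92.9% of its words also occur in other genes, most of them in the ATP synthase gene Atp5g1. The shares were 57.0% for Ccl27a, 73.3% for Pcdhga11 and 32.8% for H2-Q2. With TMM-scaled CPM 16 genes were wholly higher and 19 wholly lower.

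Genes with large rises were in part also high in some of the other libraries. Pianp, a neural membrane protein (chromosome 6), had 97.6, 116 and 129 CPM in the 14, while the other sets of libraries had medians of at most 8.35 CPM apart from 72.9 in libraries 91-100. Of the 81 libraries 1 reached the range of the 14. It rose by 3.17 ± 0.48 against all 81 (adjusted p = 9.15e-08) and by 5.32 and 5.24 in the run contrasts. Itih1, an inter-alpha-trypsin inhibitor chain, and Slc22a29, an organic anion transporter of which 44.0% of words occur in other genes, had medians of 27.1 and 1.73 CPM in the 14 and were matched by libraries 86-90, at 30.3 and 2.26 CPM. Sgip1, an endocytic adaptor, rose by 2.21 ± 0.23 to a median of 33.6 CPM from 5.91, and Barhl1, a homeobox factor, by 2.10 ± 0.34 to 16.7 CPM from 3.04. Ccdc178 rose by 2.21 ± 0.50 to 2.00 CPM from 0.166. Each of these 6 genes also passed with the within-run correlation, the largest adjusted p being 5.51e-05 for Barhl1.

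On chromosome 13 a stretch of 3 neighbouring genes, between 95431371 and 95525240, was high as a block, and no other autosomal gene was tested there. Crhbp, which binds corticotropin-releasing hormone and urocortins, had 5.72, 7.38 and 11.7 CPM in the 14 and a median of 0.314 in the others, with 4.79 CPM in libraries 9-16 and 40-48. S100z, an S100 calcium-binding protein, had 4.68, 7.08 and 11.5 CPM against a median of 0.657. Their log2 fold changes were 2.54 ± 0.51 and 2.22 ± 0.49, and F2rl1, the third gene, rose by 1.04 ± 0.12. In all, 40 of the 198 genes called at 2-fold with the within-run correlation lay in 16 stretches of at least 2 genes with 1 direction within 500 kb. The largest held 5 higher genes of 41 tested, among the clustered protocadherins of chromosome 18. In a part of it 3 of 25 were lower. How many stretches the same number of genes taken at random would form was not tested. Among the stretches were Hdhd3 with Alad and, in the class I region of chromosome 17, H2-T10 with Gm8909 and C920025E04Rik. Pseudogenes made up 13.6% of the 198 and 2.67% of the genes tested.

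Among the largest falls, Cela3a, Ctrc and Prss1 encode pancreatic digestive proteases. Ctrc, chymotrypsin C, had 3.47, 8.63 and 13.8 CPM in the 14 and 6.78, 1018 and 8681 in the others, a fall by 8.07 ± 1.04 (adjusted p = 1.05e-09, and 0.0272 with the within-run correlation). Cela3a had a median of 513 CPM in libraries 1-8 and 34-39 and of at most 2.66 CPM in every other set. Cela3a and Prss1 did not pass with the within-run correlation (adjusted p = 0.834 and 0.863). They share 45.8% and 69.3% of their words with other genes, and with the acinar covariate neither passed (adjusted p = 0.942 and 0.95). Both belong to the acinar list whose mean level is the score, so the covariate cannot decide on them.

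Other large falls were of genes at or near 0 in the 14, for which no fold is given. None of the 6 genes named next, nor Dhrs7c, passed with the within-run correlation. Azgp1, a secreted zinc-binding glycoprotein, had no count in any of the 14, which allows up to 0.00831 CPM over them, and reached 10.2 CPM elsewhere. Prodh2, an enzyme of hydroxyproline breakdown, was at most 0.0395 CPM and had a median of 17.7 CPM in libraries 76-85. Dhrs7c, which marks libraries 66-75, belongs here too. C87414, Mndal, Trim5 and Lefty1, a secreted Nodal antagonist, had medians of at most 0.0389 CPM in the 14. Lefty1 had a median of 6.13 CPM in the others, with 17 of the 81 in the range of the 14.

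Exocrine transcripts were scarce in the 14. The 22 acinar genes took 0.266%, 0.858% and 3.35% of counts as lowest, median and highest share, against 0.995%, 8.33% and 41.5% in the other 81. None of the 81 was below the median of the 14, and 17 were within their range. All 22 were called lower in edgeR at a median log2 fold change of -4.06, beside -0.05 for all genes, and 2 of 22 with the within-run correlation. Fewer acinar cells and less RNA per cell cannot be told apart in bulk RNA. A low acinar share moved with membership of the 14 in both runs (medians of 1.09% in 25-32 and 0.734% in 59-65), and its part in results on other genes was tested only through the covariate.

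Duct genes split. The keratin gene Krt19, an epithelial intermediate filament and duct marker singled out after the values were seen, had 10.8, 16.2 and 26.7 CPM in the 14 and 0.232, 2.88 and 25.4 in the others, with 3 of the 81 in that range. It rose by 1.99 ± 0.30 (adjusted p = 7.72e-08, and 2.91e-05 with the within-run correlation), by 3.79 with the acinar covariate, and by 1.78 and 1.94 in the run contrasts. Of the 10 duct genes 4 were higher, all keratins (Krt7, Krt8, Krt18 and Krt19), and 5 lower, beside 15.6% and 25.6% of all genes. Tff2, a trefoil peptide, fell by 4.06 ± 0.62, the mucin gene Muc1 by 2.87 ± 0.47 and Spp1, osteopontin, by 2.73 ± 0.42. With the acinar covariate only Spp1 of these 3 was still lower (adjusted p = 0.000288).

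A minority of the hormone and beta cell genes passed. Of the 8 hormone genes Ppy, pancreatic polypeptide, rose by 1.04 ± 0.19 from a median of 1347 CPM to 3271, with 67 of the 81 libraries in the range of the 14, 707 to 6127 CPM. Ghrl, ghrelin, fell by 1.53 ± 0.51 from 2.09 to 1.23 CPM. Ins1, Ins2, Gcg, Sst, Iapp and Pyy did not pass. With the within-run correlation none of the 8 was called in limma voom or had an unadjusted p under 0.05, with an adjusted p of 0.574 for Ppy and 0.882 for Ghrl. Of 17 beta cell identity genes 5 were higher and 1 lower, beside 15.6% and 25.6% of all genes. Their median log2 fold change was 0.10, with Glp1r, the incretin receptor, at 0.52 ± 0.14 and Isl1, a homeobox factor, at -0.35 ± 0.11. None of the 17 was called with the within-run correlation in limma voom, and 1 had an unadjusted p under 0.05.

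The granin Scg2, a cargo protein of secretory granules, was the 1 member of its list called with the within-run correlation. It had 3577, 4046 and 4458 CPM in the 14 and 1819, 6752 and 28177 in the others. Of the 81 libraries 3 were within the range of the 14, and 71 were at or above its lower end. It fell by 1.15 ± 0.21 (adjusted p = 9.14e-06, and 0.0351 with the within-run correlation), and by 1.46 and 1.40 in the run contrasts. Of the 12 granule genes 6 were higher, among them Scg5, a chaperone of prohormone convertase, at 0.62 ± 0.13, from a median of 686 to 1289.7 CPM, beside 15.6% of all genes. With the within-run correlation 0 of the 12 were higher in limma voom (3 at an unadjusted p under 0.05, adjusted p = 0.103 for Scg5). With the acinar covariate 2 of the 12 were higher and 3 lower, at a median of -0.014. Of 16 calcium channel and exocytosis genes 7 rose and 2 fell, beside 15.6% and 25.6% of all genes. With the within-run correlation 0 of the 16 were called in limma voom, with 1 at an unadjusted p under 0.05, and with the acinar covariate 3 were higher and 2 lower. The potassium channel Kcnq1, lower by 1.32 ± 0.29, was higher by 0.47 with the acinar covariate. The alpha cell list had 1 of 7 lower (Irx1, by 0.78 ± 0.25). The delta cell list had 0 of 5 called by edgeR or DESeq2, with 1 at an unadjusted p under 0.05 in edgeR. With the acinar covariate 3 of the 5 were lower, at a median of -0.72, and in 25-32 over 1-24 2 of the 5 were higher.

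Of the 16 clock genes 11 rose and 2 fell, beside 15.6% and 25.6% of all genes. Their median log2 fold change was 0.64 beside -0.05 for all genes. The median was 0.43 with the acinar covariate, where 7 were higher and 1 lower. Beside Dbp, Npas2 and Nfil3, the members named here were chosen after the values were seen. Dbp, an output factor of the clock, had 17.1, 35.2 and 67.9 CPM in the 14 and 3.82, 13.8 and 58.3 in the others, and rose by 1.02 ± 0.20 (adjusted p = 3.59e-05). Nr1d2, a heme-binding repressor, held 162 to 223 CPM against 26.9 to 191 and rose by 0.73 ± 0.12. Nr1d1 and Per1, repressors of the same loop, rose by 0.84 ± 0.22 and 0.76 ± 0.16. The activator Arntl fell by 0.57 ± 0.17 and its relative Npas2 by 1.16 ± 0.27. In limma voom with the within-run correlation 0 of 16 were called and 4, all higher, had an unadjusted p under 0.05, with an adjusted p of 0.368 for Dbp. With column sums alone 12 were higher and 1 lower, beside 4012 and 1768 of all 15283 genes.

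The promoters of the clock genes are shown for the E-box that the activators bind. RefSeq windows of 250 bases before to 50 after the start (GRCm38.p6) were held for 15 of the 16 genes, and the letters CACGTG, which read the same on both strands, occurred in 6 of their 20 windows and in 7.15% of all 32851 windows. All 5 genes with a match (Per1, Tef, Ciart, Cry1 and Bhlhe41) rose, as did 5 genes without one, while Arntl and Npas2, which fell, had none. A match is a description of letters. Windows of the repressor gene Per1 (chr11:69098699-69098998, plus strand), the output gene Tef (chr15:81802423-81802722, plus strand) and the repressor gene Ciart (chr3:95882179-95882478, minus strand) are given 5′ to 3′ with CACGTG in capitals, 1 match in Per1, 1 in Tef and 3 in Ciart.
Per1: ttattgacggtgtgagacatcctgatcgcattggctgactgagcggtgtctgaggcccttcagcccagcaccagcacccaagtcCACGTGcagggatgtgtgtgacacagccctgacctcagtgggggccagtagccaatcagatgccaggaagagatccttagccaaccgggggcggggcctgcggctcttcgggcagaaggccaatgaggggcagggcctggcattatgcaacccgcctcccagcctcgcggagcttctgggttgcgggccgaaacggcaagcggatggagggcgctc
Tef: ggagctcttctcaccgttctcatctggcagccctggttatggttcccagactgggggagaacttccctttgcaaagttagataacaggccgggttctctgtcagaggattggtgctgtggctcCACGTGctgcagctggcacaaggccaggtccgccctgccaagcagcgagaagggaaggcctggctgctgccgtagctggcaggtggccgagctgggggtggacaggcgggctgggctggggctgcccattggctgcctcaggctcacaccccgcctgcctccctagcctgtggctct
Ciart: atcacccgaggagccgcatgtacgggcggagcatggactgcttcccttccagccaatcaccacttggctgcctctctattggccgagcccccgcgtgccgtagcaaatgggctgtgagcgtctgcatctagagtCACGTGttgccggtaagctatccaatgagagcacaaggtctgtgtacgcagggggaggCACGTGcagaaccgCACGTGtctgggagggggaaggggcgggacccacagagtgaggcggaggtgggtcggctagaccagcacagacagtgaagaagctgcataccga

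Of 14 immediate early and heat shock genes 7 were higher and 1 lower, beside 15.6% and 25.6% of all genes. With the within-run correlation 0 of the 14 were called in limma voom, with 1 at an unadjusted p under 0.05. Nr4a1, an orphan nuclear receptor induced within minutes of stimulation, had 542, 1505 and 1992 CPM against 67.5, 382 and 1251, and rose by 1.39 ± 0.21 (adjusted p = 9.52e-08, and 0.296 with the within-run correlation). Fosl2, an AP-1 subunit, was at 1.44 ± 0.31 for the 14, but at -0.065 with libraries 59-65 alone. Egr4, a zinc-finger early response factor, had 14.7, 33.1 and 56.7 CPM against 0.196, 3.20 and 22.7, and rose by 2.65 ± 0.32 (adjusted p = 1.41e-10, and 2.94e-08 with the within-run correlation). Of 20 genes of the unfolded protein response 9 rose and 2 fell, beside 15.6% and 25.6% of all genes. With column sums alone 15 rose and 2 fell, beside 4012 and 1768 of all 15283 genes. With the acinar covariate 12 rose and 0 fell in edgeR, beside 12.2% and 22.3% of all genes. None of the 20 was called in limma voom with the within-run correlation, with 1 at an unadjusted p under 0.05. Ddit3, the factor CHOP, rose by 1.04 ± 0.16 and Atf3 by 0.89 ± 0.29, while Sel1l, of the degradation machinery, fell by 0.89 ± 0.19 and was higher by 0.42 with the acinar covariate.

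Lipid genes differed by small amounts. Of 21 genes of cholesterol and fatty acid synthesis 11 rose and 1 fell, beside 15.6% and 25.6% of all genes. With column sums alone 15 rose and 1 fell, beside 4012 and 1768 of all 15283 genes. None of the 21 was called in limma voom with the within-run correlation, with 2 at an unadjusted p under 0.05. Msmo1, a sterol oxidase, rose by 0.57 ± 0.13, whereas the desaturase gene Scd1, with its highest median of 66.9 CPM in libraries 91-100, fell by 1.70 ± 0.48. Of 15 genes of fatty acid oxidation 11 fell and 0 rose in edgeR, at a median of -0.23, beside 25.6% and 15.6% of all genes. Angptl4, a lipase inhibitor induced by fatty acids, fell by 1.72 ± 0.35, Pdk4, a kinase that spares glucose, by 1.22 ± 0.25, and Acadl, an acyl-CoA dehydrogenase, by 0.60 ± 0.11. With column sums alone 3 of the 15 fell and 0 rose, beside 1768 and 4012 of all 15283 genes. The list median was then -0.037, beside 0.12 for all genes. In limma voom with the within-run correlation 0 of 15 were called and 2 had an unadjusted p under 0.05, and in DESeq2 11 fell.

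Redox, glycolytic and zinc genes went both ways. In limma voom with the within-run correlation 0 of the 25, 21 and 9 genes of these lists were called, with 2, 5 and 0 at an unadjusted p under 0.05. Of 25 glutathione and antioxidant genes 6 were higher and 5 lower, beside 15.6% and 25.6% of all genes. With column sums alone 11 were higher and 3 lower, beside 4012 and 1768 of all 15283 genes. The quinone reductase Nqo1 fell by 1.22 ± 0.32 to a median of 7.35 CPM, Gsta3 by 1.74 ± 0.44 and catalase (Cat) by 1.05 ± 0.25, and with the acinar covariate Gsta3 and Cat no longer passed. Of 21 genes of glycolysis and mitochondrial shuttles 7 were higher and 4 lower (14 and 2 with column sums alone), beside the same shares of all genes. Malic enzyme (Me1), of which 36.9% of words occur in other genes, fell by 0.68 ± 0.11 and the glycerol phosphate dehydrogenase Gpd2 rose by 0.47 ± 0.11. In the zinc list 1 of 9 rose and 3 fell, beside 15.6% and 25.6% of all genes. Slc39a5 was lower by 4.00 ± 0.64 and, with the acinar covariate, no longer different (adjusted p = 0.205).

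The immune lists depended on libraries 91-100. Of 12 lymphocyte genes 9 were called lower at a median of -3.87, and without libraries 91-100 in the reference 1 was lower and 1 higher. The macrophage list had 7 of 10 lower and then 1, and the MHC class II list 6 of 8 and then 1. Of all genes 25.6% were lower, and 24.3% without libraries 91-100. In limma voom with the within-run correlation 0 genes of these 3 lists were called, or had an unadjusted p under 0.05. Cd3d, a T cell receptor chain, had a median of 13.6 CPM in libraries 91-100 and at most 0.242 in the 14. Of 16 class I genes 1 was higher and 2 lower against all other libraries, at a median of -0.29. Without libraries 91-100 9 were higher and 2 lower, beside 17.0% and 24.3% of all genes. With the within-run correlation 0 were called in limma voom. In libraries 25-32 over 1-24 11 of 16 were higher and in 59-65 over 34-58 6 of 16, beside 13.2% and 7.67% of all genes. The other 3 lists also had medians above 0 in these contrasts. They were 0.81 and 0.61 for lymphocyte, 0.17 and 0.19 for macrophage and 0.39 and 0.08 for class II genes.

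Among the class I genes, H2-T22 had 0.429, 0.799 and 1.64 CPM against 0.261, 24.1 and 88.2 and fell by 4.74 ± 0.54 (adjusted p = 8.87e-12, and 0.149 with the within-run correlation), with 4 of the 81 in that range. Its relative H2-T10, chosen after the values were seen, had 13.3, 16.9 and 20.7 CPM against a median of 2.38. In edgeR it did not pass against all 81 (0.83 ± 0.52, adjusted p = 0.2), and rose by 2.85 and 2.48 in the run contrasts (adjusted p = 2.39e-08 and 1.16e-06). In limma voom with the within-run correlation H2-T10 was among the 198 genes called at 2-fold against all 81. H2-T22 and H2-T10 share 67.4% and 64.2% of their words with other genes, each mostly with the other, and how reads were divided between them was not tested.

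**Figure D4:**
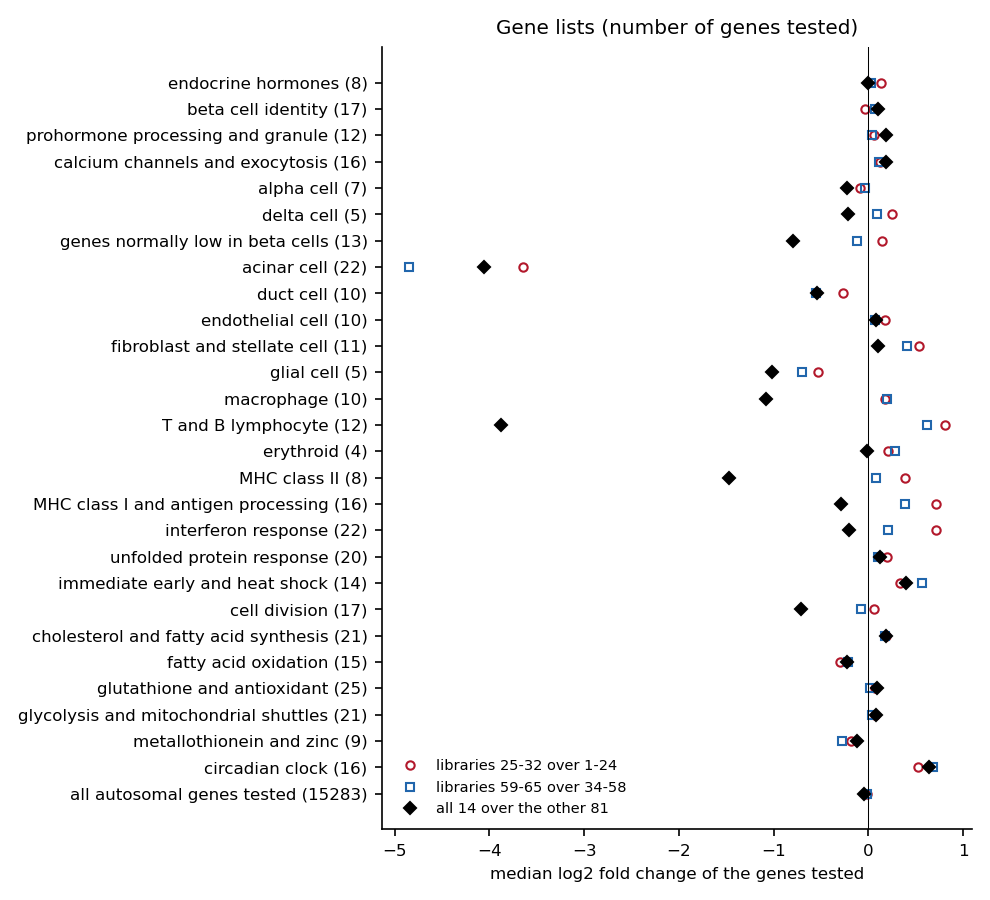
Median log2 fold change (horizontal axis) of the autosomal genes tested in each list and of all genes, for libraries 25-32 over 1-24 (red circles), 59-65 over 34-58 (blue squares) and the 14 over the 81 (black diamonds). The acinar list lies at -4.06 for the 14 over the 81 and the clock list at 0.64, and the lymphocyte, macrophage and class II lists are below 0 for the black diamonds alone.

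Counts in the other lists against the 81 stood beside 15.6% of all genes higher and 25.6% lower. Of 10 endothelial genes 1 rose (Tek, by 0.45 ± 0.12) and of 11 fibroblast and stellate genes Sparc rose by 0.37 ± 0.16 and Thy1 fell by 1.18 ± 0.47. In both run contrasts 3 of the 11 were higher and 0 lower, at medians of 0.53 and 0.41. Of all genes 13.2% and 7.67% were higher there. In the glial list 3 of 5 were lower (S100b, Cryab and Gfap), and 0 of 5 in either run contrast in edgeR or with the within-run correlation in limma voom. In the erythroid list 1 of 4 was lower (Hba-a1, near-identical to Hba-a2). In the division list 3 of 17 were lower and 1 higher, and in each run contrast 0 were lower and 2 higher in edgeR. With the acinar covariate 13 were lower and 1 higher, at a median of -1.31, beside 22.3% and 12.2% of all genes. Of 13 genes normally low in beta cells 5 were lower, and in the run contrasts 0 were lower in edgeR, with 3 higher in the first. Of the 22 interferon genes 1 rose (Irf1, by 0.60 ± 0.25) and 2 fell, Mx1 and Ifit3. Without libraries 91-100 in the reference 6 were higher and 0 lower in edgeR, beside 17.0% and 24.3% of all genes. In 25-32 over 1-24 8 were higher and 0 lower, at a median of 0.71, beside 13.2% and 17.9% of all genes. In 59-65 over 34-58 1 was higher and 1 lower, beside 7.67% and 11.2% of all genes.

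Libraries 25-32 and 59-65 also differed from each other, in 4574 genes (29.9%). Of 396 that differed at least 2-fold (2.59%), 197 (1.29%) were higher in 59-65 and 199 (1.3%) lower. The numbers of libraries are 8 and 6, and title order and any other difference between the runs cannot be told apart. Much of the difference was shared by the neighbours: 380 of the 396 genes (96.0%) had the same sign between libraries 34-58 and 1-24, beside 75.4% of all genes. Nfil3, a repressor of the clock's output genes, had 170 to 394 CPM in 25-32 and 36.7 to 125 in 59-65, without overlap, a difference of -2.18 on the log2 scale for 59-65 over 25-32 (adjusted p = 0.000284). Fosl2 went the same way, from 168 to 538 CPM down to 44.7 to 155 (-2.07, adjusted p = 0.00048).

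Of the 16 clock genes 10 were called between the runs, beside 29.9% of all genes. Dbp was higher in libraries 59-65, at 49.2 to 67.9 CPM against 17.1 to 35.3 (1.02, adjusted p = 0.000263), and Arntl lower, at 4.90 to 9.79 against 8.99 to 20.9 (-1.26, adjusted p = 0.000501). Of the 16 none was called for a difference between the run contrasts in edgeR.

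**Figure D5:**
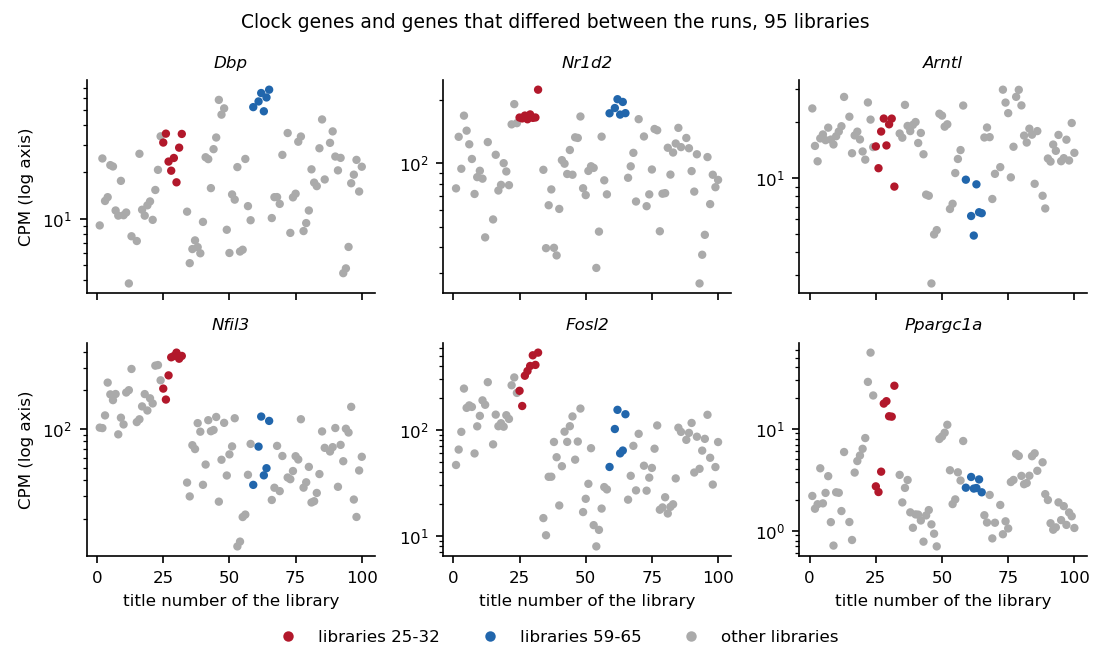
Level of 6 genes (CPM, log axis) against title number, with libraries 25-32 in red, 59-65 in blue and the others in grey. Dbp is high and Arntl low in 59-65, Nr1d2 is high in both runs, and Nfil3 and Fosl2 are high in 25-32 and not in 59-65.

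A group of genes chosen after the values were seen varied within libraries 25-32. Ppargc1a, a coactivator of mitochondrial genes, was at 2.40 to 3.80 CPM in libraries 25, 26 and 27, at 13.2 to 26.5 in libraries 28 to 32, and at 2.38 to 3.37 in 59-65. Tac1, the substance P precursor, Gpr3, a constitutively active receptor, and Mfsd2a, a lipid transporter, were also highest in libraries 28 to 32, reaching 9.20, 17.3 and 10.7 CPM. Between the runs these 4 differed by -2.26 (Ppargc1a), -2.99 (Tac1), -2.61 (Gpr3) and -3.01 (Mfsd2a) for 59-65 over 25-32, with adjusted p from 0.000838 to 0.00472. The split within 25-32 is a description.

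Some of the largest differences between the runs rested on 1 or 2 libraries. Apob, Muc13 and Fcgbp, genes of gut-type epithelium, reached 33.7, 19.1 and 46.7 CPM in library 32 and at most 0.380, 0.342 and 1.13 CPM in the other libraries of 25-32. Ighm and Ighg3, immunoglobulin heavy chains, were high in libraries 61 and 63, with 238 and 168 CPM for Ighm, against 1.21 to 14.7 CPM in 25-32. Without libraries 32 and 65, a setting chosen after seeing the data, the 3 genes of gut-type epithelium did not pass, and Apob differed by -0.66 on the log2 scale in place of -5.74.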

How the data were processed

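Expected counts per gene and variance-stabilised values were deposited by the authors for 95 libraries, and GRCm38 and DESeq2 are named in the submitters' processing notes; the aligner and counter are not given in the sources used here. The deposited counts (67.7% of values whole within 1e-06) were rounded for tests. The deposited variance-stabilised values are on a log2 scale and served as an alternative. Libraries were grouped by title number alone.

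Genes with at least 1 CPM in at least 10 libraries were kept (15841 of 20638, 15283 of them autosomal). edgeR 4.0.16 quasi-likelihood tests used TMM library sizes in R 4.3.3 with Benjamini-Hochberg adjustment over all kept genes, called at 0.05. limma 3.58.1 voom with a correlation within title runs and DESeq2 1.42.0 were alternatives. Scripts were tested on simulated data.

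The members and lists were chosen with earlier results of these data known. Named genes were, per direction, the 10 non-overlapping genes with the widest gap, the 10 largest called changes with 1 direction in both runs, up to 3 members per list, and the 5 largest differences between the runs; others are said to be chosen later, and 2 genes that the rule names are not reported here. Promoters came from RefSeq (GRCm38.p6). Sharing of sequence was counted in 31-base words of transcripts.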

Additional observations from a re-analysis of the deposited data

Results flagged for a closer look

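Within each run the highest and lowest library were set against Dixon's 95% limit for the named genes. Of 233 groups tested 28 held a library far from the others, where chance flags about 1 in 20 groups of unselected genes. The named genes include those picked for the largest differences between the runs, some of which rested on 1 or 2 libraries. The chance rate therefore cannot judge the 28.

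Library 32 stood apart for the gut-type genes Apob (33.7 CPM), Muc13 (19.1) and Fcgbp (46.7), for Cat (16.9), for the clock repressor Nr1d2 (223) and for 1500015A07Rik (16.0). Library 30 stood apart for the glial genes S100b (1.19), Cryab (3.26) and Gfap (2.54), for Ighm (14.7), for H2-Ob (3.53), for Scd1 (10.5) and for Crhbp (11.6). Library 29 had low Ppy (707 CPM) and high Spp1 (36.5).

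Library 65 was high for Alad (50.2 CPM), Prss1 (7.63), Kcnq1 (6.42), Muc1 (7.83), Spp1 (41.5), Hspa1b (235), Scd1 (13.2), Angptl4 (2.54) and Slc39a8 (1.55). Library 63 was high for Hs3st5 (1.97) and Ighg3 (97.1) and low for Ctrc (3.60), and library 64 stood apart for Styk1 (2.21).

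In 8 genes the contrasts of the runs differed by edgeR's test of the difference itself. On the log2 scale, 59-65 over 34-58 less 25-32 over 1-24 was 0.57 for Phospho2, 0.58 for Trmt10c, 0.37 for Mfap1b, 0.37 for Zfp746 and 0.54 for Zfp809. It was -0.97 for Zfp568, -2.44 for A330040F15Rik and 3.13 for Marcksl1-ps4, whose words all occur in other genes.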

How the results depend on the processing

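The 6308 genes called for the 14 against the 81 became 291 with a within-run correlation and 1532 with libraries 59-65 alone. At 2-fold the 193 higher genes became 296 with column sums, 95 with 59-65 alone, 97 on variance-stabilised values, 379 without the low-count filter and 365 against libraries 1-24 and 34-58, and the 1381 lower genes became 522 with 59-65 alone, 147 on variance-stabilised values, 32 with the correlation and 830 against 1-24 and 34-58. With the acinar covariate 25-32 over 1-24 gave 1080 calls (210 higher and 227 lower at 2-fold) and 59-65 over 34-58 gave 1905 (339 lower). Column sums gave 567 higher in the first, and 510 higher and 430 lower in the second. Non-overlapping genes numbered 40 higher without 91-100, and 19 lower with TMM-scaled CPM or 4 with a median of at least 10 CPM.

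Signs turned with the acinar covariate for Cela3a (0.18), Kcnq1 (0.47), Muc1 (0.059), Cryab (0.17), Sel1l (0.42), Gsta3 (0.14), Slc39a5 (0.20) and Slc39a14 (0.12). Cela3a is itself part of the acinar score, so its turn decides nothing. Signs turned against 1-24 and 34-58 for Lyz2 (0.055), Aif1 (0.34), Cd3d (0.43), Cd3e (1.07), Cd3g (0.77), Ciita (0.12), H2-Ob (1.26) and Mx1 (0.86), without 91-100 for H2-Ob (0.10), and against 66-100 for Ghrl (0.28). With 59-65 alone Vgf was at -0.15, Fosl2 at -0.065 and Nfil3 at -0.63. The cause was not tested. No paired analysis was possible because each title number belongs to 1 library. Low genes, under about 1 CPM, rest on few counts.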
